A study of Mus musculus with 12 samples.

Results

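The adaptor proteins and kinases that carry the signal of Toll-like receptors (TLRs) into the cell were followed as 10 genes in N9, a permanently growing mouse microglial cell line. Microglia are the macrophages that live in the brain. The 10 genes were chosen by name as the rows Myd88, Tirap, Ticam1, Ticam2, Irak1, Irak2, Irak3, Irak4, Traf6 and Tifa of a table of 54532 genes. All 10 had enough reads to be among the 12766 genes tested. The libraries formed 4 groups of 3, named here by medium and by lipopolysaccharide (LPS), the bacterial surface molecule that TLR4 detects. The unstimulated group was kept in control medium, a glucose-free base with 5% dialysed serum to which 3 mM glucose and 5 mM fructose had been given. The second group had the same medium and received LPS at 1 µg/ml for 6 h, after 18 h in the medium. The high-glucose and high-fructose groups had 15 mM glucose or 15 mM fructose in that medium for the same time and received the same LPS. The labels leave unsaid whether 15 mM was the final or the added concentration. Both carried LPS, and raised sugar without LPS is not among the labelled groups, so an effect of sugar on resting cells was not analysed here. All groups are of 1 cell line, and whether replicate libraries stem from independent cultures is left unsaid by the labels, so p-values reflect how these libraries vary, possibly for technical reasons alone.

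Total counts per library ran from 15453776 to 17956772. Of 15 macrophage and microglia markers, 9 were above 10 CPM, the read count normalised to the scaled library total, among them Cd68, Csf1r and Spi1, while P2ry12 had 1 to 6 reads, Sall1 0 or 1, and Siglech none. Of the markers of other cell types, Gja1, Aldh1l1, Mbp and Map2 were above 10 CPM, and the 5 lymphocyte markers summed to at most 0.255 CPM. The summed fibroblast markers ran from 0.447 to 11.0 CPM without LPS and, with LPS, from 0.776 to 7.57 in control medium, 0.798 to 8.29 in high glucose and 0.921 to 19.3 in high fructose, and their part in the results was not tested. Tnf, an early target of this pathway, rose from 15.6 to 228 CPM with LPS in control medium. Of the other readouts of LPS chosen, Il1b rose from 0.15 to 9.06 CPM and Cxcl10 from 1.56 to 204. Ifnb1 had 0 to 3 reads in any library. In high glucose and high fructose with LPS, Tnf stood at 173 and 187 CPM. Il1b stood there at 7.94 and 11.4 CPM, and Cxcl10 at 196 and 79.6.

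TLRs that have bound a ligand gather adaptors at the membrane. MyD88, which TIRAP brings to TLR2 and TLR4, stacks with the kinases IRAK4, IRAK1 and IRAK2 into the myddosome, and the IRAK kinases pass the signal to the ubiquitin ligase TRAF6, which starts NF-kB and MAP kinase signalling. TLR4 also signals from endosomes through TRAM, the product of Ticam2, and TRIF, the product of Ticam1, which leads to IRF3 and type I interferon. IRAK3, also called IRAK-M, lacks normal kinase activity and restrains the pathway in macrophages. TIFA binds TRAF6 and is best known as the step after the kinase ALPK1 in the response to bacterial heptose sugars.

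The first comparison asked how these genes responded to LPS in control medium. Of the 10 genes, 4 rose, Irak3, Irak2, Ticam1 and Myd88, and none fell by edgeR's quasi-likelihood test with Benjamini-Hochberg adjustment over all genes tested, the test behind every adjusted p given here. The threshold was an adjusted p below 0.05. In bulk RNA, fewer cells of a type and less RNA per cell cannot be told apart. Across all genes, 28.8% passed in either direction and 15.2% were higher, 1941 genes against 1736 lower, a split that became 1412 against 2951 with library totals alone. The median log2 fold change of the 10 was 0.26, against −0.00 for all genes tested. The 3 libraries with LPS did not overlap the 3 without it for 7 of the 10, as for 44.3% of all genes.

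The plot of levels by library shows the adaptor and IRAK genes in all 4 groups.

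**Figure D1:**
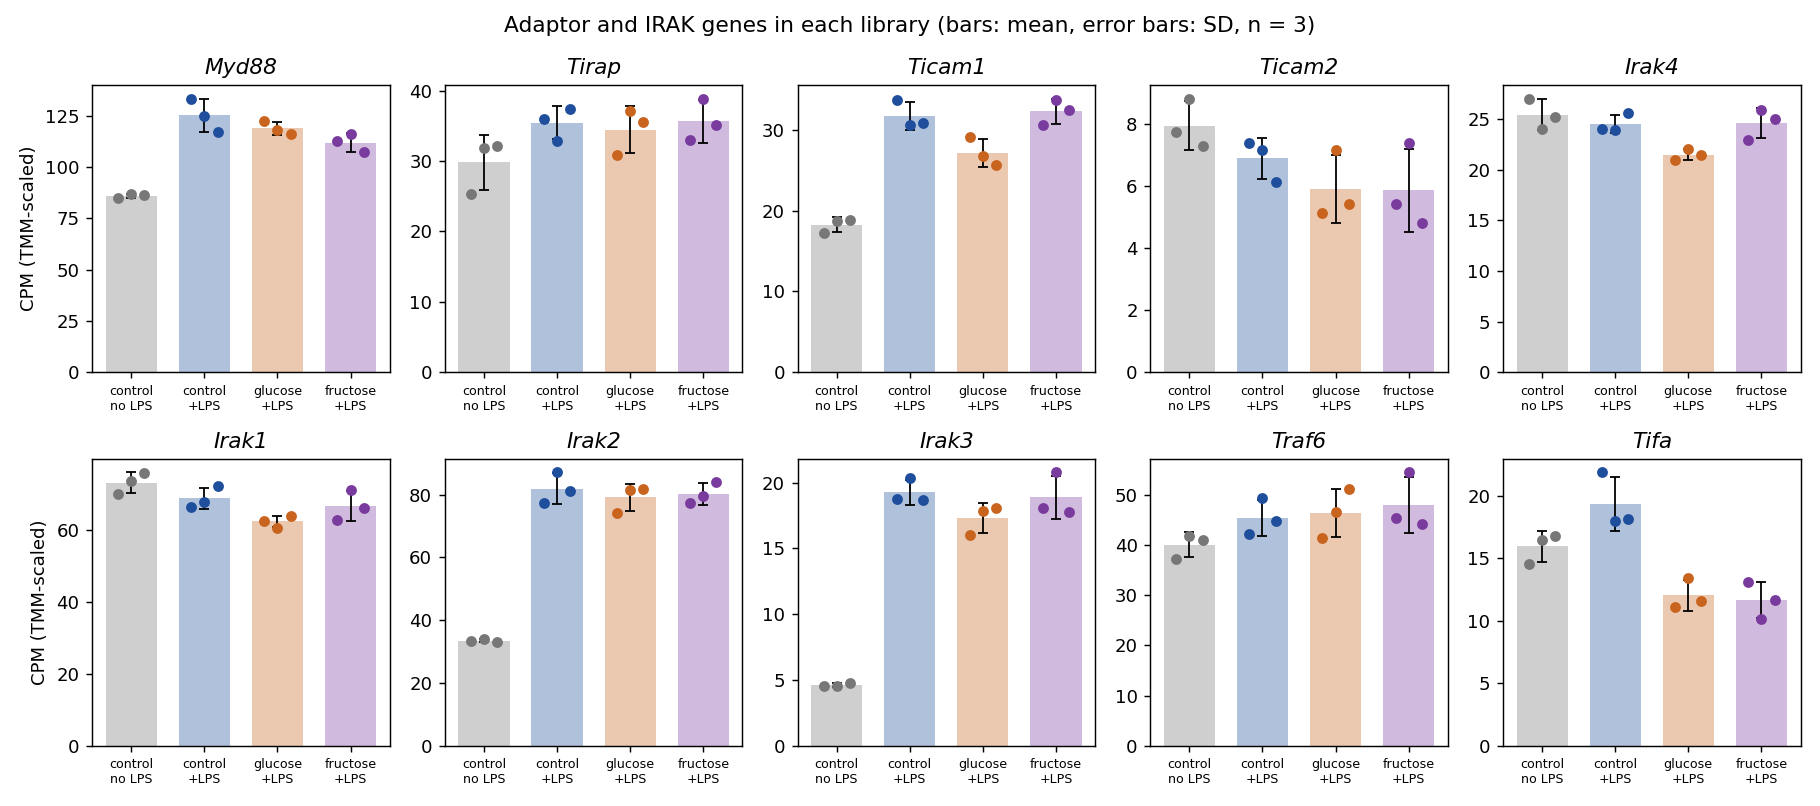
Level of each of the 10 genes in CPM (vertical axes, each from 0) in every library of the 4 groups (horizontal axes). Points are libraries 1 to 3 from left to right, bars the mean and error bars the SD of 3. Irak2 and Irak3 are far higher in all 9 libraries with LPS, and Tifa is lower in the 6 libraries with raised sugar than in the 3 with LPS in control medium.

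Among the adaptors, Myd88, the shared adaptor of most TLRs, read 84.7, 86.8 and 86.2 CPM without LPS and 133, 125 and 117 CPM with it. Every library with LPS was above every one without it, and the unstimulated libraries lay close together. The rise was 0.54 ± 0.05 on the log2 scale (SE, n = 3 per group; adjusted p = 3.52e-07). Part of Myd88, 11.3% of its exonic bases, overlaps Acaa1a on the other strand, and no source used here says whether reads were counted by strand. Acaa1a itself had a log2 fold change of 0.17 (adjusted p = 0.062).

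Tirap, the bridging adaptor that brings MyD88 to TLR2 and TLR4, read 25.3, 31.9 and 32.2 CPM without LPS and 36.0, 32.9 and 37.4 CPM with it. The groups came close without overlapping, and the difference of 0.25 ± 0.10 did not pass (adjusted p = 0.074). Of its exonic bases, 9.84% overlap genes on the other strand, mainly Srpr, which differed by 0.02 (adjusted p = 0.855).

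Ticam1, which encodes TRIF, read 17.2, 18.7 and 18.9 CPM without LPS and 33.7, 30.6 and 30.9 CPM with it. Its rise of 0.80 ± 0.08 (adjusted p = 4.74e-07) was a 1.74-fold change, with no overlap between the groups. Its partner Ticam2, the TRAM adaptor that couples TLR4 to TRIF, went the other way without passing, from 7.74, 8.83 and 7.28 CPM to 7.39, 7.16 and 6.15 CPM (−0.20 ± 0.17, adjusted p = 0.42). The Ticam2 groups overlapped, it was the least abundant adaptor, and 14.5% of its exonic bases are shared with Tmed7 on the same strand in GENCODE M21. That gene model is not the one counted, since its exonic bases number 5792 against a deposited length of 3928, so the counts of Ticam2 are uncertain.

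Of the kinases, Irak2 and Irak3 rose, and Irak4 and Irak1 did not pass. Irak4, the first kinase of the myddosome, read 27.1, 24.0 and 25.3 CPM without LPS and 24.1, 23.9 and 25.6 CPM with it, a difference of −0.05 ± 0.08 (95% interval −0.22 to 0.12; adjusted p = 0.689). Irak1, the kinase that IRAK4 phosphorylates, read 70.2, 73.7 and 75.9 CPM against 66.5, 67.9 and 72.3 CPM with LPS (−0.09 ± 0.06, 95% interval −0.21 to 0.03; adjusted p = 0.287). For both genes the groups overlapped. With library totals alone Irak1 passed as lower (−0.18, adjusted p = 0.0244). Twf1, which overlaps 7.87% of the exonic bases of Irak4 on the other strand, rose by 0.23 (adjusted p = 0.0035).

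Irak2, the kinase that sustains TRAF6 signalling late in the response, read 33.3, 34.0 and 33.0 CPM without LPS and 77.4, 87.1 and 81.3 CPM with it. The rise of 1.29 ± 0.06 (adjusted p = 1.62e-11) was 2.45-fold. Irak3, the inhibitory member, read 4.53, 4.53 and 4.78 CPM against 18.7, 20.3 and 18.7 CPM, a rise of 2.06 ± 0.11 (adjusted p = 5.66e-11) or 4.17-fold. Of the 10 genes, these 2 had the largest changes, with ranks of 258 for Irak3 and 537 for Irak2 by absolute log2 fold change among the 12766 genes tested. Exonic overlap with genes on the other strand was 4.44% for Irak2 and 5.99% for Irak3, the latter mostly with Tmbim4, which had a log2 fold change of 0.30 (adjusted p = 0.00797).

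At the TRAF6 step, Traf6 read 37.2, 41.9 and 41.0 CPM without LPS and 42.2, 49.4 and 44.7 CPM with it, a difference of 0.18 ± 0.09 that did not pass (adjusted p = 0.163). Tifa, which links receptors to TRAF6, read 14.5, 16.5 and 16.8 CPM against 21.9, 18.0 and 18.2 CPM. Its difference of 0.28 ± 0.12 did not pass either (adjusted p = 0.084), and control-medium LPS library 1 stood above the other two. Neither gene overlapped between the groups. Tifa passed when only these 2 groups were fitted (adjusted p = 0.0472), and so did Tirap (adjusted p = 0.0416). Tirap also passed without the filter on low counts (adjusted p = 0.0357).

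Per unit of gene length, on the deposited FPKM scale, which divides by gene length and a constant per library, the order of the kinases turned with LPS. Irak1 stood at 15.5 ± 0.603 FPKM (SD, n = 3) and Irak2 at 7.53 ± 0.123 without LPS. With LPS in control medium they stood at 14.5 ± 0.619 and 18.5 ± 1.10. The ratio of Irak2 to Irak1 within a library was 0.464, 0.493 and 0.507 without LPS and 1.20, 1.24 and 1.37 with it, and Irak2 was the more abundant in all 9 libraries with LPS.

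Irak3 was the lowest of the 10 without LPS, at 1.25 ± 0.0394 FPKM, and with LPS in control medium it reached 5.22 ± 0.258, beside Irak4 at 4.87 ± 0.18. The ratio of Irak3 to Irak4 went from between 0.229 and 0.259 to between 0.997 and 1.16. Myd88 was the highest in every group, from 33.2 ± 0.44 FPKM without LPS to 48.4 ± 3.17 with LPS in control medium, and Ticam2 the lowest in the 3 LPS groups. Tirap, Irak4, Traf6 and Tifa lay between 4.95 and 6.02 FPKM without LPS, and the ranges of these 4 genes over the libraries overlapped one another.

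**Figure D2:**
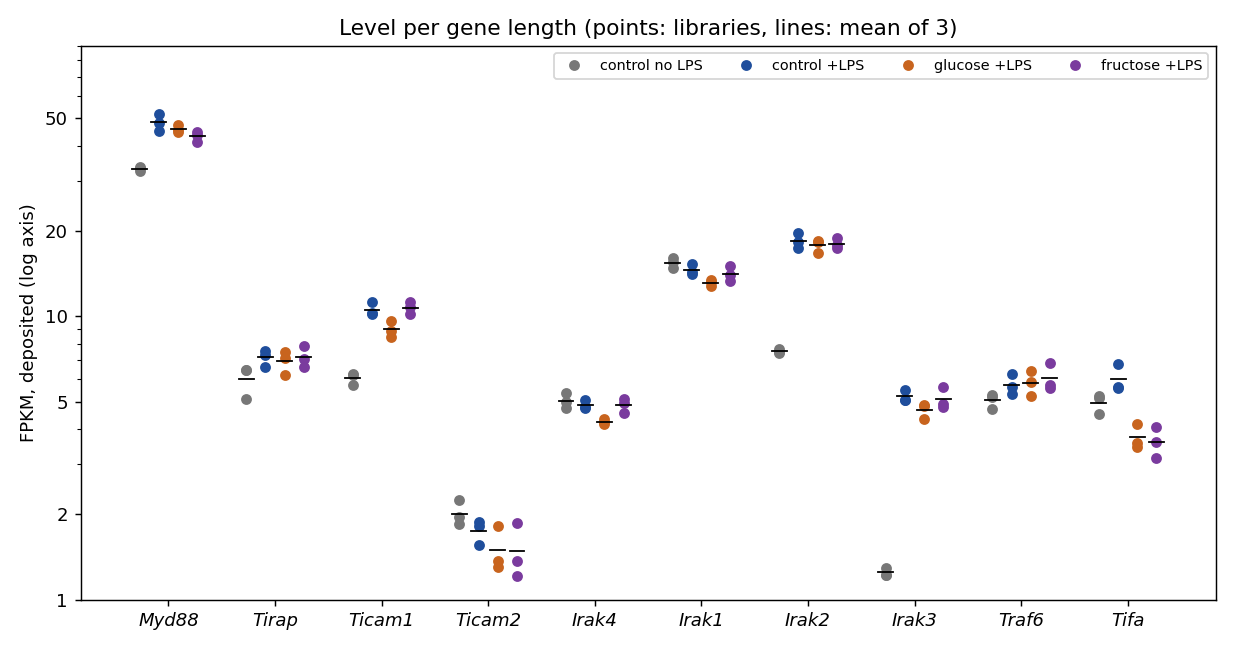
Level per gene length in deposited FPKM (vertical log axis) of the 10 genes (horizontal axis), with a point for each library and a line at the mean of 3, coloured by group. Irak2 lies below Irak1 without LPS and above it in the LPS groups, and Irak3 moves from 1.25 to 5.22 FPKM, next to Irak4.

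Promoter sequences are shown for Irak2 and Irak3, which rose most, and for Myd88 and Tifa, whose windows held a match to a motif searched. They are from RefSeq on GRCm38.p6, run from 250 bases before to 50 after a start site, and are written 5′ to 3′ on the gene's strand, with motif matches in capitals. The search covered 13 such windows for 9 of the 10 genes, and Ticam2 was left out of it. Both strands were searched for the NF-kB consensus, for the interferon response pair, which is TTTC, any 2 bases and TTTC again, for the AP-1 motif TGANTCA and for the cyclic AMP element TGACGTCA. No match overlapped one of another motif.
Myd88, chr9:119339969-119340268, minus strand: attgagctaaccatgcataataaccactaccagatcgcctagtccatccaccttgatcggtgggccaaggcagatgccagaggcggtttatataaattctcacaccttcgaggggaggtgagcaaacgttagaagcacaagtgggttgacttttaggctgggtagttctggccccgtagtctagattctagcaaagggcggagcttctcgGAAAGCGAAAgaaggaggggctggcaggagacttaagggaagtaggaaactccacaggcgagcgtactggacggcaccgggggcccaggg
Irak2, chr6:113638217-113638516, plus strand: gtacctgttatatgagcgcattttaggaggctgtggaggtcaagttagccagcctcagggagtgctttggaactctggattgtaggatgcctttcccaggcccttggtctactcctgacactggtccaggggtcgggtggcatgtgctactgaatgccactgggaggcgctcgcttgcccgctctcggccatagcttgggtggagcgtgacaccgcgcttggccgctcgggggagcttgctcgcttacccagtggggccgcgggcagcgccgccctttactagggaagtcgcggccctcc
Irak3, chr10:120201548-120201847, minus strand: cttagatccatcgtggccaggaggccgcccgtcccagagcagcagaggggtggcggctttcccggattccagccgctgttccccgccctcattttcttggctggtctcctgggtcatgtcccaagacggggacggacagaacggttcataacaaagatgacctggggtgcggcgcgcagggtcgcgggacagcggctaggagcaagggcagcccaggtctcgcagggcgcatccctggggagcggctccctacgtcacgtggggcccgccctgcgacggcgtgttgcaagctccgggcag
Tifa, chr3:127790407-127790706, plus strand: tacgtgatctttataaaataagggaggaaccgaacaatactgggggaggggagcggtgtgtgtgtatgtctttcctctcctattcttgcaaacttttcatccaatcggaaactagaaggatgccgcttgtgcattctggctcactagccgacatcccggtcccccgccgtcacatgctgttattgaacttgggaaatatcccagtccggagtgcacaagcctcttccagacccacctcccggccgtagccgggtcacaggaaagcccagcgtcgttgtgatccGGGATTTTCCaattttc

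The Myd88 window held the interferon response pair on the opposite strand, read as GAAAGCGAAA from −40 to −31, a motif found in 3.44% of 32851 promoters. The Tifa window, the second of 2 for that gene, held the NF-kB consensus GGGATTTTCC from 34 to 43 after the start. Irak1, whose level did not pass under LPS, also held an NF-kB consensus, and 8.46% of all promoters have one. No window of Irak2 or Irak3 matched any of the 4 motifs, which says only that these letters are not in these windows.

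The other genes of the pathway were described in 4 lists, to be read beside the 15.2% of all genes that were higher with LPS and the 13.6% that were lower. Of 16 tested receptors, co-receptors and their chaperone, 7 rose and 3 fell with LPS (median 0.14). Tlr2, the receptor for bacterial lipoproteins, rose by 1.77, the LPS co-receptor gene Cd14 by 0.61 and Tlr3, the receptor for double-stranded RNA, by 1.79. The 3 that fell, looked up afterwards, were Tlr4, the LPS receptor itself (−0.53), Il18rap (−0.78) and Tlr8 (−2.61), which was scarce at 1.27 CPM without LPS and 0.201 with it.

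Downstream of TRAF6, 6 of 18 kinases and ubiquitin enzymes rose and 1 fell (median 0.03). Map3k8, the kinase that activates the ERK branch, rose by 1.83, Rnf31, of the linear ubiquitin complex, by 0.75, and the p38 activator Map2k3 by 0.35. The gene that fell, looked up afterwards, was Rbck1, a partner of Rnf31 (−0.15).

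On the TRIF route, 9 of 14 genes rose and 1 fell (median 0.29), with Irf7, the amplifier of interferon genes, at 3.96, the kinase gene Ikbke at 1.80 and Azi2 at 0.46. The gene that fell, looked up afterwards, was Ripk3, a kinase of cell death (−0.53). Of 17 regulators of the adaptors, 6 rose and 2 fell (median 0.08). Tnfaip3, the deubiquitinase A20, rose by 2.33, the ligase gene Peli1, which acts on IRAK kinases, by 1.03 and Usp25 by 0.71. Il1rl1 and Nlrx1, looked up afterwards, were the 2 lower ones (−0.95 and −0.52).

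**Figure D3:**
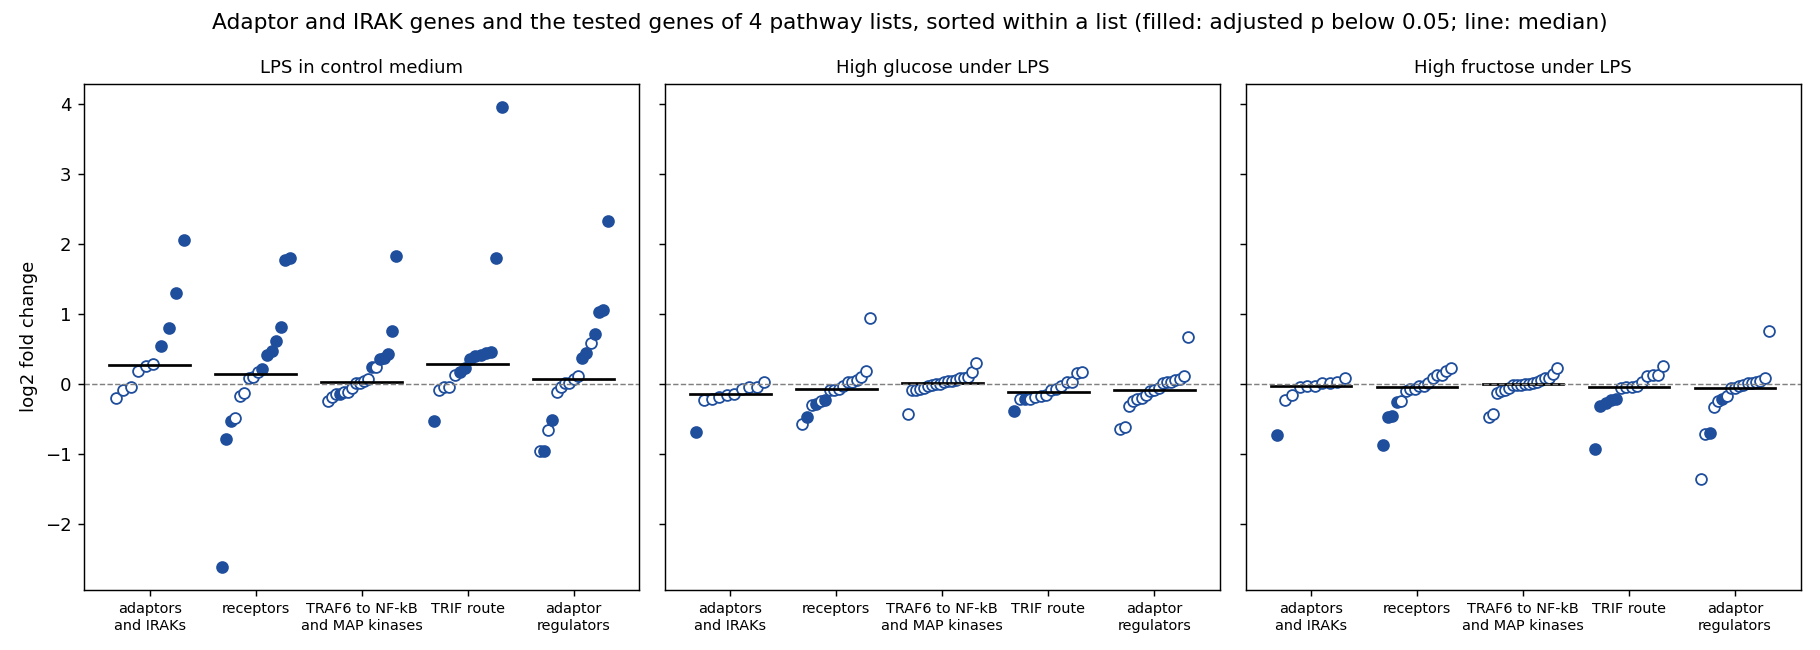
Log2 fold change (vertical axis) of the 10 adaptor and IRAK genes and of the tested genes of 4 pathway lists (horizontal axis) in 3 comparisons. Each point is a gene, filled where its adjusted p was below 0.05, and lines are medians. With LPS in control medium, points reach 3.96 (Irf7), and under raised sugar Tifa is the filled point among the 10.

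The next comparison asked what high glucose changed in cells with LPS. Of the 10 genes, 1 changed, Tifa, which was lower, beside 1.56% of all genes in either direction (0.587% higher and 0.971% lower). An unadjusted p below 0.05 was reached by 4 of the 10, beside 1780 of all 12766 genes tested. The 3 high-glucose libraries did not overlap the control-medium LPS libraries for 5 of the 10, against 19.2% of all genes tested. The 5 were Ticam1, Irak1, Irak3, Irak4 and Tifa, each lower with high glucose. The median log2 fold change of the 10 was −0.15, against 0.00 for all genes.

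Tifa (ENSMUSG00000046688, chromosome 3 at 127789805 to 127832164, plus strand) read 21.9, 18.0 and 18.2 CPM with LPS in control medium and 11.1, 13.4 and 11.5 CPM in high glucose. The highest high-glucose library lay below the lowest control-medium one. The fall was −0.68 ± 0.12 on the log2 scale, a ratio of 0.623 (adjusted p = 0.0068). Without control-medium LPS library 1, the highest, Tifa no longer passed (−0.58, adjusted p = 0.0558). It passed when any other library was left out. A gene on the other strand, Gm43654, covers 3.28% of the exonic bases of Tifa and had at most 4 reads in a library.

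Of the myddosome kinases in high glucose, none passed. Irak4 read 20.98, 22.0 and 21.5 CPM, each below the lowest control-medium LPS library at 23.9 CPM, a difference of −0.19 ± 0.08 (95% interval −0.36 to −0.02; adjusted p = 0.292). Irak1 read 62.7, 60.8 and 64 CPM against 66.5 CPM or more (−0.14 ± 0.06, 95% interval −0.27 to −0.02; adjusted p = 0.287). Neither passed after adjustment, although their groups did not overlap. Twf1, which overlaps 7.87% of the exonic bases of Irak4 on the other strand, differed by −0.18 (adjusted p = 0.13).

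Irak2 read 74.1, 81.4 and 81.9 CPM, with library 1 below the lowest control-medium LPS library at 77.4 CPM and the groups overlapping (−0.05 ± 0.06, 95% interval −0.17 to 0.07). Irak3 read 16.0, 17.9 and 18.1 CPM, just under the lowest control-medium value of 18.7 CPM (−0.15 ± 0.09, adjusted p = 0.513). Both genes were therefore still far above their unstimulated levels, by 1.24 ± 0.06 and 1.91 ± 0.11.

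Ticam1, the TRIF adaptor, read 29.0, 26.8 and 25.6 CPM in high glucose, below the lowest control-medium LPS value of 30.6 CPM. The difference of −0.22 ± 0.08 did not pass (adjusted p = 0.202). Myd88 read 122, 118 and 116 CPM (−0.07 ± 0.05, adjusted p = 0.592), Tirap 30.8, 37.1 and 35.5 CPM (−0.04 ± 0.10), Ticam2 5.14, 7.18 and 5.42 CPM (−0.22 ± 0.18) and Traf6 41.4, 46.5 and 51.1 CPM (0.03 ± 0.09). For these 4 genes the groups overlapped.

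Of the pathway lists in high glucose, 3 of 16 receptors and their chaperone were lower, namely Tlr13 (−0.48), Unc93b1, the chaperone of endosomal TLRs (−0.28), and Tlr2 (−0.23). On the TRIF route 2 of 14 were lower, Ikbke (−0.39) and Irf5 (−0.22). By edgeR none of the 18 genes downstream of TRAF6 passed (1 at an unadjusted p below 0.05, 1 with DESeq2) and none of the 17 regulators (4 and 2). The list medians were −0.08, −0.12, 0.01 and −0.09 for receptors, TRIF route, TRAF6 to kinases and regulators.

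High fructose was compared with the same control-medium LPS libraries, so the high-glucose and high-fructose values share their reference. Of the 10 genes, 1 changed, again Tifa, which was lower, beside 4.91% of all genes in either direction (2.37% higher and 2.55% lower). An unadjusted p below 0.05 was reached by 2 of the 10, beside 1984 of all 12766 genes tested. The groups did not overlap for 2 of the 10, Tifa and Myd88, against 20.4% of all genes. The median log2 fold change was −0.03.

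Tifa read 13.1, 10.2 and 11.6 CPM in high fructose, all below the control-medium LPS libraries. The fall was −0.73 ± 0.12, a ratio of 0.602 (adjusted p = 0.000879). It passed whichever library was left out (adjusted p 0.00106 to 0.00799), and without high-fructose library 2 the fall was −0.64 (adjusted p = 0.00582).

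Myd88 read 113, 116 and 107 CPM in high fructose, just below the lowest control-medium LPS library at 117 CPM, and the difference of −0.16 ± 0.05 did not pass (adjusted p = 0.111). Ticam1 read 30.6, 33.7 and 32.5 CPM, overlapping those with LPS in control medium (0.02 ± 0.08, 95% interval −0.14 to 0.19). Irak4 read 23.0, 25.9 and 25.1 CPM (0.01 ± 0.08), Irak1 63.0, 71.3 and 66.2 CPM (−0.04 ± 0.06), Irak2 77.3, 79.4 and 84.0 CPM (−0.03 ± 0.06) and Irak3 18.1, 20.8 and 17.8 CPM (−0.03 ± 0.09).

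Those kinase groups overlapped the control-medium ones. Tirap read 32.9, 38.9 and 35.1 CPM (0.01 ± 0.10), Ticam2 5.43, 7.38 and 4.80 CPM (−0.23 ± 0.18) and Traf6 45.4, 54.5 and 44.2 CPM (0.08 ± 0.09). High-fructose library 2 was the highest of its group for 8 of the 10 genes, the exceptions being Irak2 and Tifa, and it also stood apart on the third principal component of all genes, at 32.2 against 9.58 and 6.2.

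**Figure D4:**
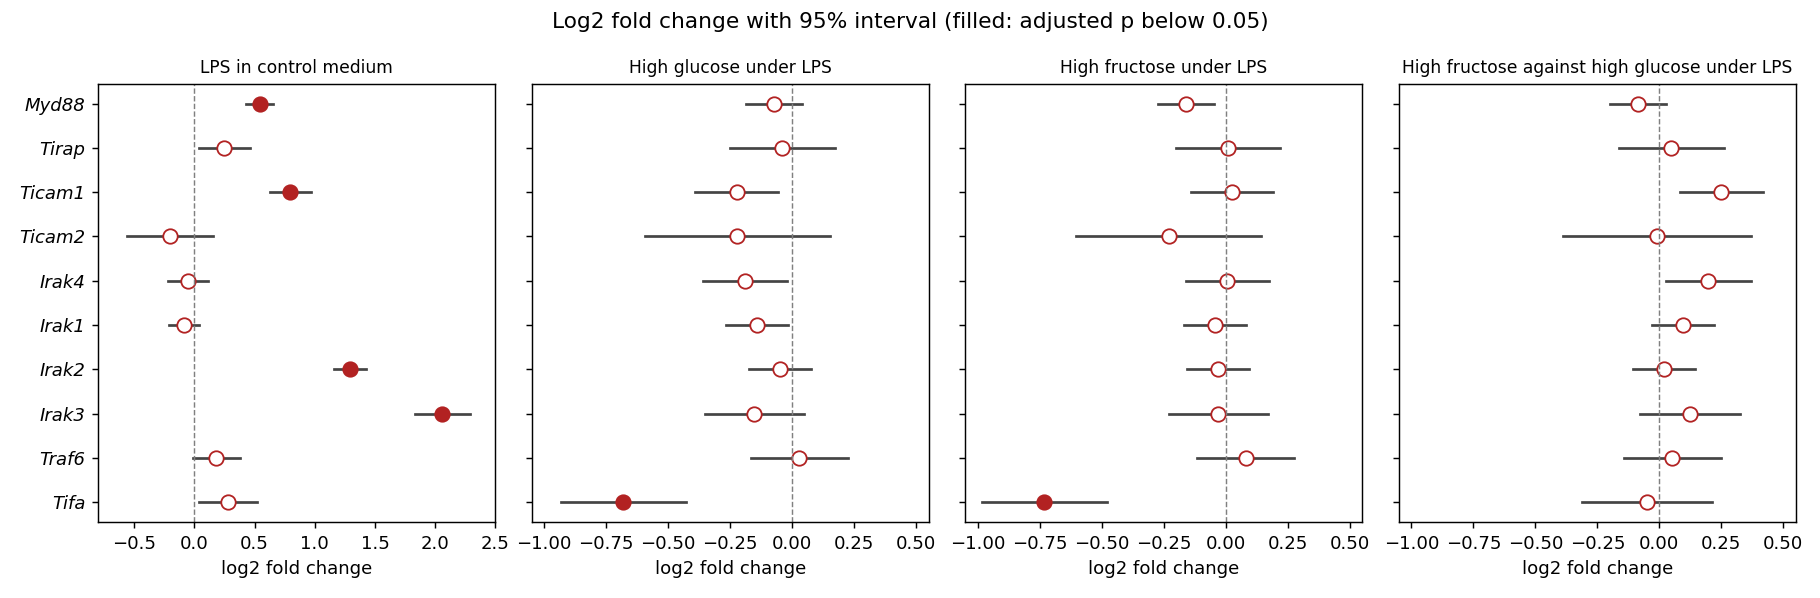
Log2 fold change (horizontal axes, with a wider scale in the first panel) of the 10 genes (vertical axis) in 4 comparisons, with 95% intervals. Filled points had an adjusted p below 0.05. Irak3, Irak2, Ticam1 and Myd88 are filled under LPS, Tifa at −0.68 and −0.73 under the raised sugars, and none between the sugars.

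Among the pathway lists in high fructose, 4 of 16 receptors and their chaperone were lower, Tlr3 (−0.88), Tlr13 (−0.46), Unc93b1 (−0.26) and, looked up afterwards, Tlr6 (−0.48). On the TRIF route 5 of 14 were lower, Irf7 (−0.93), Irf5 (−0.32) and Ikbke (−0.27), with Casp8 (−0.23) and Azi2 (−0.22) looked up afterwards. By edgeR none of the 18 genes downstream of TRAF6 passed (3 at an unadjusted p below 0.05, 0 with DESeq2). Of the 17 regulators 2 were lower, Usp25 (−0.21) and Tifab, a relative of Tifa known to restrain it (−0.70, adjusted p = 0.046), and DESeq2 called 1 of the 17. Tifab stood at 5.41 CPM with LPS in control medium, 3.54 in high glucose and 3.32 in high fructose.

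The difference between the 2 sugars was tested directly. By edgeR none of the 10 genes passed between high fructose and high glucose with LPS (2 at an unadjusted p below 0.05, 0 with DESeq2). Of all genes, 3.72% passed (1.84% higher and 1.88% lower in high fructose), and 1995 of 12766 had an unadjusted p below 0.05. Tifa differed by −0.05 ± 0.12 (95% interval −0.31 to 0.21; adjusted p = 0.898). Ticam1 was the gene closest to passing, at 30.6 to 33.7 CPM in high fructose against 25.6 to 29.0 CPM in high glucose (0.25 ± 0.08, adjusted p = 0.101). The groups did not overlap for 3 of the 10, Myd88, Ticam1 and Irak4, against 17.9% of all genes. Irak4 was higher in high fructose by 0.20 ± 0.08 (adjusted p = 0.224), and Myd88 differed by −0.09 ± 0.05 (adjusted p = 0.482). Of the pathway lists, Tlr3 (−0.64) and Irf7 (−0.78) were lower in high fructose and Tlr2 (0.20) was higher.

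Comparison of the sugar groups with unstimulated cells completed the order of levels, though medium and LPS differ together there. With high glucose, 7 of the 10 passed, 4 higher and 3 lower, beside 35.2% of all genes in either direction (2360 higher and 2128 lower, or 1626 and 3331 with library totals alone). With high fructose 6 passed, 5 higher and 1 lower, beside 33.3% (2261 higher and 1994 lower, or 1612 and 3310). The groups did not overlap for 8 of the 10 with high glucose and 7 with high fructose, against 45.9% and 44.7% of all genes.

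Tifa was below its unstimulated level in both sugar groups, by −0.40 ± 0.12 in high glucose (adjusted p = 0.0139) and −0.45 ± 0.12 in high fructose (adjusted p = 0.00702). All 6 libraries with raised sugar, at 10.2 to 13.4 CPM, lay under the lowest unstimulated one at 14.5 CPM. In high glucose the call was lost without unstimulated library 3 or high-glucose library 1 or 3 (adjusted p = 0.0557, 0.06 and 0.0506). The order for Tifa was thus control medium with LPS, control medium without LPS, high glucose and high fructose, where the first pair of neighbours did not pass and the last pair overlapped.

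Irak1 in high glucose was lower than in unstimulated cells by −0.23 ± 0.06 (adjusted p = 0.00504), and Irak4 by −0.24 ± 0.08 (adjusted p = 0.025). The Irak4 call was lost without unstimulated library 1 (adjusted p = 0.0946), high-glucose library 1 (0.0725) or high-glucose library 3 (0.058), and without the filter on low counts (0.0832). In high fructose Traf6 was higher by 0.26 ± 0.09 (adjusted p = 0.0376), a call lost without unstimulated library 1 (0.15) or 3 (0.0724) or high-fructose library 2 (0.2). With library totals alone the split in high fructose was 4 higher and 3 lower, Traf6 no longer passing (adjusted p = 0.177) and Irak1 (−0.23, adjusted p = 0.00471) and Ticam2 (−0.53, adjusted p = 0.0224) passing as lower. Myd88, Ticam1, Irak2 and Irak3 were higher than unstimulated in both sugar groups. Myd88 followed the order control medium, high glucose and high fructose with LPS, then unstimulated (0.54, 0.47 and 0.38 above it), and no neighbours among the LPS groups differed by the test.

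The nearest tested protein-coding gene before Tifa is Alpk1, which lies 9277 bases away and encodes the kinase that acts on TIFA. Alpk1 stood at 8.24 CPM without LPS, 8.32 with LPS in control medium, 6.70 in high glucose and 7.03 in high fructose. Its differences from control medium with LPS, −0.31 ± 0.15 in high glucose (adjusted p = 0.35) and −0.25 ± 0.15 in high fructose (adjusted p = 0.468), did not pass. Ap1ar, the next gene on the other side, whose span overlaps that of Tifa, stood at 48.4 to 49.5 CPM in all 4 groups. For the 4 genes that rose with LPS in control medium, neighbours were read in that comparison. Beside Irak2, Vhl rose by 0.52 and Tatdn2 by 0.50. Beside Myd88, Oxsr1 rose by 0.31 and Acaa1a, at 0.17, did not pass. Beside Ticam1, Plin3 rose by 0.33 and Fem1a, at 0.12, did not pass. Beside Irak3, Tmbim4 rose by 0.30 and Helb fell (−0.36). The cause was not tested.

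The genes most alike in pattern were sought among 8552 protein-coding genes by Pearson correlation of log2 CPM over the 12 libraries, which share the 4 group means, so r mostly reflects the groups. For Irak3 they were Tnfaip3 (r = 0.998), Tnfrsf1b (0.997) and Mfap3l (0.997), and for Irak2 they were Pim1 (0.995), Tnip1 (0.995) and Tnfrsf1b (0.994). For Myd88 they were Bid (0.988), Tdrd7 (0.984) and Ifi204 (0.981), and for Ticam1 Tnfaip2 (0.986), Bcl2l11 (0.982) and Slc11a1 (0.979). Tifa was most like Scamp1 (0.945), Lipa (0.908) and Sqor (0.906).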

How the data were processed

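RNA-seq of 12 N9 libraries, 3 in each of 4 groups, was analysed. The authors deposited raw read counts per gene and FPKM values, made with featureCounts 1.5.0-p3 on mm10, per the submitters' processing notes. No source used here names the aligner, annotation release or strand setting. The deposited FPKM equalled count over length and a constant per library. From the counts, 12766 of 54532 genes passed edgeR's filter (minimum count 10, minimum total 15). edgeR 4.0.16 (R 4.3.3) fitted all 4 groups together with TMM scaling and a quasi-likelihood test, with Benjamini-Hochberg adjustment over all genes tested and a threshold of 0.05, for 6 comparisons. The test was tested on simulated data. CPM were computed on the TMM-scaled totals. Total counts of 15453776 to 17956772 set the precision, and replicates differed by more than counting error.

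The 10 genes and the pathway and marker lists were chosen with earlier results of these data known. Beyond the 10 genes, the text names the 3 genes of each list with the smallest adjusted p among those that passed, and the 3 most alike in pattern. Some genes that overlap or lie next to one of the 10, cell type markers and the readouts of LPS are also named. Other exceptions are said to have been looked up afterwards. Exonic overlap was computed on GENCODE M21, and promoters came from RefSeq. Alternatives were DESeq2 1.42.0, its size factors in edgeR, library totals alone, no filter, a replicate block, only the 2 groups compared, and leaving out each library.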

Additional observations from a re-analysis of the deposited data

How the results depend on the processing

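Of 720 values of the 10 genes under alternatives, 661 kept their direction and their side of the threshold, 12 lost the call, 19 gained one and 28 changed sign. DESeq2, and its size factors in edgeR, changed none of 60 values each. The count of all genes called in high glucose was 199. It was 427 without a filter, 391 with a replicate block and 335 with DESeq2. Among alternatives other than leaving out a library, its lowest value was 147. With a library left out it was 67 to 177, and across all alternatives 0 to 1 of the 10 genes were called. Between the sugars it went from 475 to 735 with the replicate block and to 247 with only the 2 groups. The main fit did not pair libraries by replicate number. Library 1 had the lowest mitochondrial share of counts in every group. It was 0.618% unstimulated and, with LPS, 0.581% in control medium, 0.518% in high glucose and 0.564% in high fructose. Of 18 same-number pairs, 5 correlated above 0.1, and in no comparison did all 3, which cannot exclude pairing. All 3 pairs correlated better than the libraries did with other numbers in high fructose against control medium, both with LPS. The same held in high glucose with LPS against unstimulated cells. Both are a hint from the data and not the design. With the replicate block, 2 of the 10 genes were called in high fructose, Tifa and Myd88 (adjusted p = 0.0472). With it Tirap also passed under LPS in control medium (adjusted p = 0.0269). The cause of these shifts was not tested.

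Changes of sign came only from leaving out a library, in values that had not passed, and ranges are log2 fold changes. In high glucose they were Traf6 (−0.0472 to 0.103) and Tirap (−0.0966 to 0.0347). In high fructose they were Irak4 (−0.0314 to 0.0505), Tirap (−0.0593 to 0.0586), Ticam1 (−0.00901 to 0.0673), Irak2 (−0.0723 to 0.0149), Irak3 (−0.105 to 0.0119) and Traf6 (−0.0201 to 0.144). Between the sugars they were Tirap (−0.0265 to 0.101), Irak2 (−0.0253 to 0.0423), Traf6 (−0.0482 to 0.124), Ticam2 (−0.208 to 0.152) and Tifa (−0.147 to 0.0391). For high fructose with LPS against unstimulated cells the gene was Irak4 (−0.0885 to 0.000709).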

Other observations

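Against unstimulated cells, the regulators of the adaptors moved in both directions in the sugar groups with LPS. By edgeR's quasi-likelihood test, 12 of 17 passed in high glucose and 12 of 17 in high fructose, 7 higher and 5 lower in each, beside 35.2% and 33.3% of all genes. Tnfaip3, the deubiquitinase A20, was higher by 2.12 and 2.32, and Il1rl1, the IL-33 receptor, was lower by −1.17 and −1.29. These comparisons share the unstimulated libraries. Tifab, a relative of Tifa looked up afterwards, was lower in both, by −0.65 (adjusted p = 0.0131) and −0.74 (adjusted p = 0.0061).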
